A study of Mus musculus with 21 samples.

Results

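The genes described here are 8 inflammatory CC chemokines of the mouse: Ccl2, Ccl3, Ccl4, Ccl5, Ccl6, Ccl7, Ccl9 and Ccl12. They were chosen by name as the rows of the deposited expression table whose Ensembl identifier belongs to one of these symbols. All 8 were found among the 23250 genes of the table, and all 8 passed the filter on low counts that left 13468 genes for testing. RNA came from macrophages grown out of mouse bone marrow over 7 days with GM-CSF, which turns marrow precursors into macrophage-like cells. According to the study's design text the cells lacked the mannose receptor, an endocytic lectin encoded by Mrc1, and the labels give C57BL/6J as the genetic background of every library. Untreated cells were taken at 0 h. The treated cells received FcMR, in which the ectodomain of that receptor is fused to the Fc part of human IgG1, or an isotype control, and were taken after 4, 12 or 24 h. The labels do not describe the isotype control further. The study asked what the soluble receptor does to macrophages. Each of the 7 groups held 3 libraries, 21 in all. Nothing in the labels says whether libraries came from separate mice or cultures, so p-values measure the spread between these libraries, which may be technical.

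CC chemokines are small secreted proteins with a pair of adjacent cysteines near the start of the mature chain, and they guide leukocytes by acting on G-protein-coupled receptors. Ccl3, Ccl4 and Ccl5 attract monocytes, macrophages and T cells, and Ccl3 and Ccl5 act on CCR1 among others. Ccl2, Ccl7 and Ccl12 act on CCR2, the receptor that draws inflammatory monocytes out of the marrow and into tissue. Ccl6 and Ccl9 are rodent members of a subgroup with a longer amino end that acts on CCR1, and myeloid cells make them without an inflammatory stimulus. In macrophages the Ccl3 and Ccl4 genes are known as fast targets of NF-kB, and the messages of several members carry short AU-rich elements that mark an mRNA for rapid decay.

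All 8 genes lie on chromosome 11 of the GRCm38 assembly, by the GENCODE M21 annotation, in 2 groups that are 1422 kb apart. The first group runs from Ccl2 (chr11:82035571-82037453, plus strand) through Ccl7 (chr11:82045712-82047525, plus) to Ccl12 (chr11:82101845-82103400, plus). The second holds Ccl5 (chr11:83525778-83530518, minus), Ccl9 (chr11:83572919-83578636, minus), Ccl6 (chr11:83587882-83593087, minus), Ccl3 (chr11:83647844-83649355, minus) and Ccl4 (chr11:83662584-83664683, plus). Thus the CCR2 ligands are neighbours, and Ccl3 and Ccl4 are neighbours 13.23 kb apart on opposite strands. Ccl2 and Ccl6 each overlap an annotated gene on the opposite strand (Gm17268 and E230016K23Rik), and no source used here says that counting used strand. The main transcripts of Ccl2, Ccl3, Ccl4, Ccl5, Ccl7 and Ccl12 share no 31-base word with a transcript of another gene. Ccl6 shares 1.28% of its words and Ccl9 4.03%, so most of each transcript can be told apart from other genes at that word length.

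Promoters are shown because members that lie close together followed different courses in these data. RefSeq's promoter table (GRCm38.p6) held 4 of the 8 genes, Ccl3, Ccl6, Ccl9 and Ccl12. Ccl2, Ccl4, Ccl5 and Ccl7 had no entry. The 250 bases before each RefSeq start are printed 5′ to 3′ on the gene's own strand. They are chr11:83649379-83649628 (minus strand) for Ccl3, chr11:82101595-82101844 (plus) for Ccl12, chr11:83593088-83593337 (minus) for Ccl6 and chr11:83578637-83578886 (minus) for Ccl9. Capitals mark every match, on either strand, to the motifs searched. These were the NF-kB consensus, the interferon response core (GAAA, any 2 bases, GAAA), the AP-1 motif TGANTCA, the C/EBP motif TTNNGNAA, the ETS core GGAAGT and the TATA box TATAAA.
Ccl3: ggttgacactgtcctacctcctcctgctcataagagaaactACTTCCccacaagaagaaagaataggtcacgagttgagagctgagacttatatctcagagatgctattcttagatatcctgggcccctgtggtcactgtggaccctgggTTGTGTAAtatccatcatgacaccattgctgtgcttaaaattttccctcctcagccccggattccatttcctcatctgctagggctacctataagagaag
Ccl12: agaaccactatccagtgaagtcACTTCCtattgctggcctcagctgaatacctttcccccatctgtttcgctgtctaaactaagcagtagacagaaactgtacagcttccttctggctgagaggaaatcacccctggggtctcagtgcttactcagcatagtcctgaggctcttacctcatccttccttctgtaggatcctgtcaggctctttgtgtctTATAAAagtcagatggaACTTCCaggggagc
Ccl6: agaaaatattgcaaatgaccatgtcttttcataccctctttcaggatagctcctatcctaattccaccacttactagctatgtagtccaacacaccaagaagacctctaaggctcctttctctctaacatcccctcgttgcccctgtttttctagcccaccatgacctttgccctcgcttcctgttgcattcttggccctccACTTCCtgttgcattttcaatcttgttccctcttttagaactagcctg
Ccl9: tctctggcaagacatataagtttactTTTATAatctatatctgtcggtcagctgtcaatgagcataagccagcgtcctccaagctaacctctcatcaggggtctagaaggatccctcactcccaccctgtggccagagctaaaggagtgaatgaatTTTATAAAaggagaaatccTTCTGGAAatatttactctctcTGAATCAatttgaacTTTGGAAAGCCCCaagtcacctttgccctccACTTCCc
Each of the 4 windows held an ETS core, read on the opposite strand, against 19.7% of the 32851 promoters in the table. Ccl12 had a TATA box at −31 to −26 and a pair of ETS cores, and Ccl6 had no match besides its ETS core at −48 to −43. Ccl3 had a C/EBP match at −100 to −93. Ccl9 held the only NF-kB match of the 4 windows, at −35 to −26, and an AP-1 match at −53 to −47. These motifs occur in 3.9% and 6.75% of all promoters, the C/EBP motif in 36.8% and the TATA box in 12.4%. The NF-kB match of Ccl9 overlaps one of its C/EBP matches (−38 to −31), and a pair of its TATA matches on opposite strands share bases. The AP-1 motif, with its free middle base, is matched on both strands at the same place. No window held the interferon core, which 2.98% of promoters have. A match is a description of letters and not evidence of binding, and RefSeq's start of Ccl3 lies upstream of the one in GENCODE.

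Copies of ATTTA, the core of the AU-rich element, were counted in the 3′ UTR of each main transcript. Ccl3 had 5 copies in 409 bases, Ccl9 5 in 2465 bases and Ccl12 5 in 167 bases. Ccl6 had 4, Ccl4 and Ccl7 2 each, Ccl2 1 and Ccl5 0. Of all 21130 protein-coding genes with an annotated 3′ UTR, 65.7% had at least 1 copy and 36.2% at least 3. These shares use the longest 3′ UTR of each gene, not that of a main transcript, so the basis differs from that of the members. Of the 5231 with 200 to 700 bases, a range that holds Ccl2, Ccl3, Ccl4 and Ccl7 but not the other members, the shares were 43.1% and 7.57%. No member had the longer element TTATTTATT. Ccl5, the 1 member whose mRNA rose from 4 to 12 h, had no copy, and Ccl4, whose mRNA fell most in that step with FcMR, had 2. The part of the element in these levels was not tested.

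Library totals ranged from 5532225 to 66729533 counts. Mrc1 had 0 to 11 counts per library and did not pass the filter. The 9 macrophage markers summed to 20635 to 35976 CPM (counts brought to a common library size with TMM factors), and Lyz2, Csf1r, Cd68 and Adgre1 were present in all libraries. Markers of other cells were present as well. The 8 dendritic cell markers, Itgax among them, summed to 1341 to 1851 CPM over all libraries. The summed level of 9 neutrophil markers fell from 1402 to 1632 CPM in untreated libraries to 183 to 218 CPM with isotype at 24 h and 204 to 228 CPM with FcMR at 24 h. That of 3 eosinophil markers went from 607 to 806 CPM to 77 to 112 CPM and 59.9 to 88.2 CPM. Of 10 T and NK cell markers, 8 were measured (not Ncr1 and Gzma) and summed to 2.14 to 5.05 CPM, and the T cell genes Cd3e, Cd3d, Cd3g and Trac were under 1 CPM in every library. In these bulk samples fewer cells of a type and less RNA per cell cannot be told apart.

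FcMR first raised 5 of the 8 chemokines over isotype and later left 4 below it. At 4 h Ccl2, Ccl3, Ccl4, Ccl5 and Ccl7 were higher with FcMR and none was lower. By 12 h the higher members were Ccl3, Ccl4 and Ccl5. At 24 h Ccl5 alone of the 8 was called higher, while Ccl2, Ccl6, Ccl7 and Ccl12 were lower. Ccl9 was not called at any of these times. Calls rest on edgeR's quasi-likelihood test with Benjamini-Hochberg adjustment over all 13468 genes, at an adjusted p under 0.05, which is the test behind every adjusted p given here. Among all genes tested, 8.62% were called higher and 9.13% lower at 4 h. The shares were 8.61% and 7.49% at 12 h and 11.4% and 9.44% at 24 h. The median log2 fold change of the 8 members was 1.36, 0.44 and −0.51 at 4, 12 and 24 h, beside −0.07, −0.02 and 0.01 over all genes tested.

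**Figure D1:**
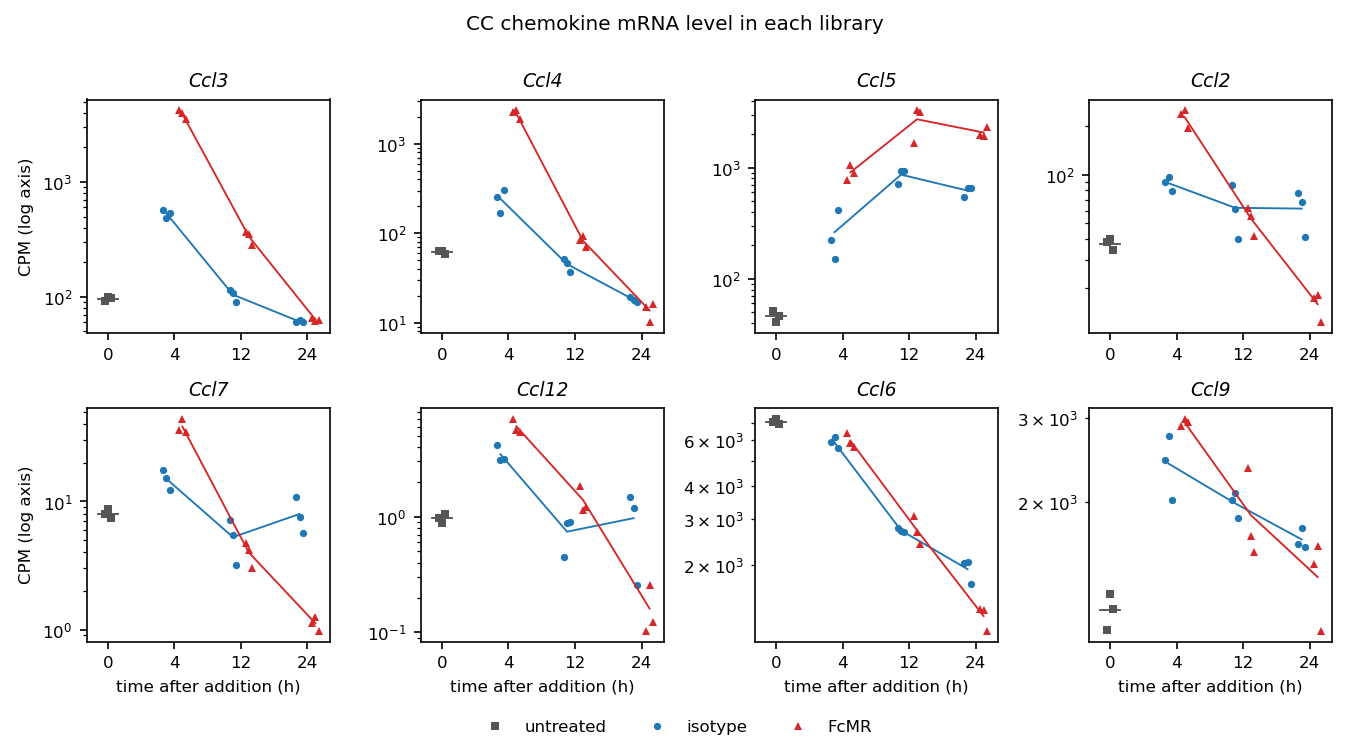
Level of each chemokine in CPM (log axis) in every library, by time after addition (evenly spaced, not to scale), with lines through group means. Ccl3 and Ccl4 peak at 4 h with FcMR, and Ccl5 stays high to 24 h. For Ccl2 and Ccl7 the FcMR mean is below that of isotype from 12 h, where libraries overlap, and all FcMR libraries are lower at 24 h.

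Ccl3, a ligand of CCR1, had the smallest p-value of all 13468 genes in the 4 h comparison. Untreated libraries held 91.6, 101 and 97.6 CPM, isotype libraries at 4 h 575, 486 and 535 CPM and FcMR libraries at 4 h 4220.4, 3946 and 3537 CPM. Every FcMR library stood far above every isotype library, and these above every untreated one. The log2 fold change between FcMR and isotype was 2.87 (SE 0.112, adjusted p = 5.6e-11), a 7.33-fold difference. At 12 h the isotype libraries had 115, 108 and 90.1 CPM and the FcMR libraries 366, 355 and 283 CPM. Isotype had returned to the untreated range or close to it, while FcMR had not, and the difference was 1.68 (SE 0.108, adjusted p = 9.56e-09). At 24 h the values were 60.6, 62.2 and 59.9 CPM with isotype and 65.8, 61.6 and 62.2 CPM with FcMR. These groups overlapped, all 6 libraries lay below the untreated ones, and the difference was 0.05 (SE 0.108, adjusted p = 0.804) with a 95% interval of −0.17 to 0.28.

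Ccl4, the neighbour of Ccl3 and likewise an attractant of monocytes and T cells, differed more between the arms at 4 h and fell more steeply after it. It stood at 62.9, 63.7 and 58.4 CPM in untreated libraries, at 253, 171 and 305 CPM with isotype at 4 h and at 2241, 2379 and 1878 CPM with FcMR at 4 h. The lowest FcMR library was above the highest isotype library, and the difference of 3.16 (SE 0.206, adjusted p = 1.5e-08), or 8.91-fold, was the largest of any member at 4 h. At 12 h isotype libraries held 51.9, 46.9 and 37 CPM and FcMR libraries 84.8, 93.2 and 69.7 CPM, a difference of 0.87 (SE 0.195, adjusted p = 0.00395). Here all 3 FcMR libraries were above the untreated level and all 3 isotype libraries below it. At 24 h isotype gave 19.6, 18 and 16.9 CPM and FcMR 14.9, 10.1 and 16.3 CPM. All FcMR libraries were then the lower ones, but the difference of −0.42 (SE 0.211, adjusted p = 0.182) was not called, with a 95% interval of −0.87 to 0.02. For Ccl3 and Ccl4 alike, the early rise was therefore lost by 24 h without a called reversal.

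Ccl5, a ligand of CCR1 that attracts T cells and monocytes, followed another course. It was at 51.5, 40.5 and 45.9 CPM in untreated libraries, 224, 152 and 413 CPM with isotype at 4 h and 773, 1050.2 and 905 CPM with FcMR at 4 h. The isotype libraries spread widely, with replicate 3 the highest, and none reached the FcMR range. At 12 h isotype libraries had 721, 942 and 937 CPM and FcMR libraries 1685, 3301 and 3203 CPM, where replicate 1 of FcMR was the lowest of its group. The values at 24 h were 548, 654 and 664 CPM with isotype and 1986, 1911 and 2328 CPM with FcMR. The FcMR libraries were above the isotype libraries at each time. The differences were 1.79 (SE 0.289, adjusted p = 2.83e-04) at 4 h, 1.66 (SE 0.287, adjusted p = 4.5e-04) at 12 h and 1.74 (SE 0.288, adjusted p = 2.16e-04) at 24 h, about as large at the last time as at the first. The change of the difference from 4 to 24 h was −0.05, with a 95% interval of −0.89 to 0.78. Isotype 4 h replicate 3 and FcMR 12 h replicate 1 are the libraries whose numbers in the titles stand out of group order, in each other's place. Whether these 2 libraries were exchanged cannot be told from the labels. For Ccl3 and Ccl6 each lay nearer to the other libraries of its labelled group than to those of the other one. For Ccl9 each lay nearer to those of the other group. Isotype 4 h replicate 3 had 2020.3 CPM of Ccl9, beside 2454 and 2758 CPM in its own group and 1701 and 1575 CPM with FcMR at 12 h. FcMR 12 h replicate 1 had 2358 CPM. Without both, the log2 difference of Ccl5 at 4 h was 2.28 and stayed called. T and NK cells are another known source of Ccl5. Of their 8 measured markers the T cell genes Cd3e, Cd3d, Cd3g and Trac were each under 1 CPM in every library and the other 4 were not, and the sum of all 8 at 24 h was 2.83 to 3.9 CPM with FcMR and 3.11 to 4.61 CPM with isotype. The part of NK cells in the level of Ccl5 was not tested.

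Ccl2, the principal monocyte attractant acting on CCR2, crossed from higher to lower. Untreated libraries had 38.3, 40.4 and 34.2 CPM. At 4 h isotype libraries had 89.3, 96.9 and 79.1 CPM and FcMR libraries 235, 249 and 194 CPM, with no overlap and a difference of 1.36 (SE 0.247, adjusted p = 8.49e-04). At 12 h the groups overlapped, at 85.6, 61.5 and 40.2 CPM with isotype and 62.6, 55.8 and 41.9 CPM with FcMR, and the difference was −0.22 (SE 0.245, adjusted p = 0.659) with a 95% interval of −0.74 to 0.29. At 24 h isotype libraries held 76.7, 67.3 and 41.1 CPM and FcMR libraries 17.4, 18.2 and 12.3 CPM. All 3 FcMR libraries lay below the lowest isotype library and below the untreated ones, and Ccl2 was 3.84-fold lower with FcMR, a log2 difference of −1.94 (SE 0.26, adjusted p = 2.44e-05). Fibroblasts are another known source of Ccl2. At 4 h their marker list summed to 4.47 to 6.06 CPM with FcMR and 2.44 to 3.79 CPM with isotype. At 12 h it summed to 10.3 to 16.8 and 2.08 to 2.79 CPM, and at 24 h to 7.83 to 10.6 and 0.322 to 1.37 CPM. Of its 5 genes, Col1a2 and Col3a1 were under 1 CPM in every library. The part of such cells in the differences of Ccl2 was not tested.

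Ccl7, which lies next to Ccl2 and acts on CCR2 as well as CCR1 and CCR3, crossed in the same way at a lower level. It was at 7.97, 8.69 and 7.44 CPM in untreated libraries, 17.5, 15.2 and 12.4 CPM with isotype at 4 h and 36, 44.3 and 35 CPM with FcMR at 4 h. FcMR was clearly separate and higher, by 1.36 (SE 0.253, adjusted p = 9.9e-04). At 12 h isotype libraries had 7.18, 5.43 and 3.2 CPM and FcMR libraries 4.77, 4.19 and 3.01 CPM, overlapping values with a difference of −0.38 (SE 0.274, adjusted p = 0.447). At 24 h the isotype libraries stood at 10.79, 7.5 and 5.66 CPM and the FcMR libraries at 1.13, 1.25 and 0.9753 CPM. The FcMR libraries were all below every other library of the series, from raw counts of 11, 34 and 8. The log2 difference of −2.80 (SE 0.318, adjusted p = 3.83e-06), 6.95-fold lower with FcMR, was the largest of any member at 24 h.

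Ccl12, the third CCR2 ligand, was close to the limit of these libraries. Raw counts were 10, 19 and 13 in untreated libraries, 29, 17 and 27 with isotype and 99, 149 and 29 with FcMR at 4 h, or 0.972, 0.874 and 1.06, 4.16, 3.07 and 3.13 and 7.01, 5.6 and 5.4 CPM. The groups at 4 h did not overlap, but the difference of 0.80 (SE 0.349, adjusted p = 0.128) was not called. At 12 h the levels were 0.449, 0.88 and 0.893 CPM with isotype and 1.83, 1.14 and 1.21 CPM with FcMR, a difference of 0.90 (SE 0.386, adjusted p = 0.138), not called either. At 24 h raw counts were 15, 11 and 2 with isotype and 1, 7 and 1 with FcMR, or 1.47, 1.18 and 0.257 CPM against 0.103, 0.257 and 0.122 CPM. The lowest isotype library and the highest FcMR library were all but equal. The fitted difference of −2.35 (SE 0.516, adjusted p = 0.00272) rests on these few counts, and without FcMR 24 h replicate 2 it was −3.06. Its size is therefore loosely known. In the fit of the 24 h libraries alone Ccl12 did not pass the filter and was not tested.

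Ccl6, a CCR1 ligand, was by far the most abundant member in untreated cells, and it went down in both arms. Untreated libraries held 7033, 7259 and 6936 CPM. At 4 h isotype libraries had 5904, 6150.3 and 5587 CPM and FcMR libraries 6381, 5863 and 5667 CPM, and at 12 h 2762, 2689 and 2671 against 3069.7, 2664 and 2407 CPM. FcMR and isotype overlapped at both times, with differences of 0.02 (SE 0.0999, adjusted p = 0.923) and 0.00 (SE 0.0999, adjusted p = 0.992) and 95% intervals of −0.19 to 0.23 and −0.21 to 0.21. At 24 h isotype libraries held 2040.4, 2051 and 1682 CPM and FcMR libraries 1353, 1347 and 1115 CPM. All FcMR libraries were then 1.51-fold lower on average, a log2 difference of −0.60 (SE 0.1, adjusted p = 2.5e-04). Against untreated, the log2 difference of the isotype libraries was −0.27 (SE 0.1, adjusted p = 0.0458) at 4 h, −1.39 (SE 0.102, adjusted p = 5.33e-09) at 12 h and −1.88 (SE 0.103, adjusted p = 1.61e-10) at 24 h. The fall at 4 h was at the edge of the threshold. It lost its call without untreated replicate 1, 2 or 3 and without isotype 4 h replicate 1 or 3, with adjusted p up to 0.111. It was lost too with RLE scaling (adjusted p = 0.0596) and when only the 6 libraries compared were fitted (0.146). Leaving out both libraries out of title order also lost the call (−0.23, adjusted p = 0.071). Neutrophil and eosinophil markers fell over the same hours, as given above, and their part in the fall of Ccl6 over time was not tested. At 24 h the summed neutrophil markers were 204 to 228 CPM with FcMR and 183 to 218 CPM with isotype, and the 3 eosinophil markers 59.9 to 88.2 and 77 to 112 CPM. Both sums overlapped between the arms, and their part in the difference of Ccl6 at 24 h was not tested.

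Ccl9, the neighbour of Ccl6 and likewise a CCR1 ligand, was not called between the arms at any time. It stood at 1079, 1286 and 1196 CPM in untreated libraries, 2454, 2758 and 2020.3 CPM with isotype at 4 h and 2892, 2996 and 2946 CPM with FcMR at 4 h. All treated libraries at 4 h were above the untreated ones, and the FcMR libraries were the highest, though the difference of 0.29 (SE 0.154, adjusted p = 0.221) was not called. At 12 h the values were 2022, 2089.8 and 1858 CPM and 2358, 1701 and 1575 CPM, and at 24 h 1635, 1767 and 1611 CPM and 1484, 1623 and 1073 CPM, isotype first. The arms overlapped at both times, with differences of −0.08 (95% interval −0.41 to 0.24) and −0.26 (95% interval −0.59 to 0.06). With a correction for GC content Ccl9 was called at 4 h (0.45, adjusted p = 1.98e-04) and at 24 h (−0.36, adjusted p = 0.00124), so its lack of a call depends on that choice.

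**Figure D2:**
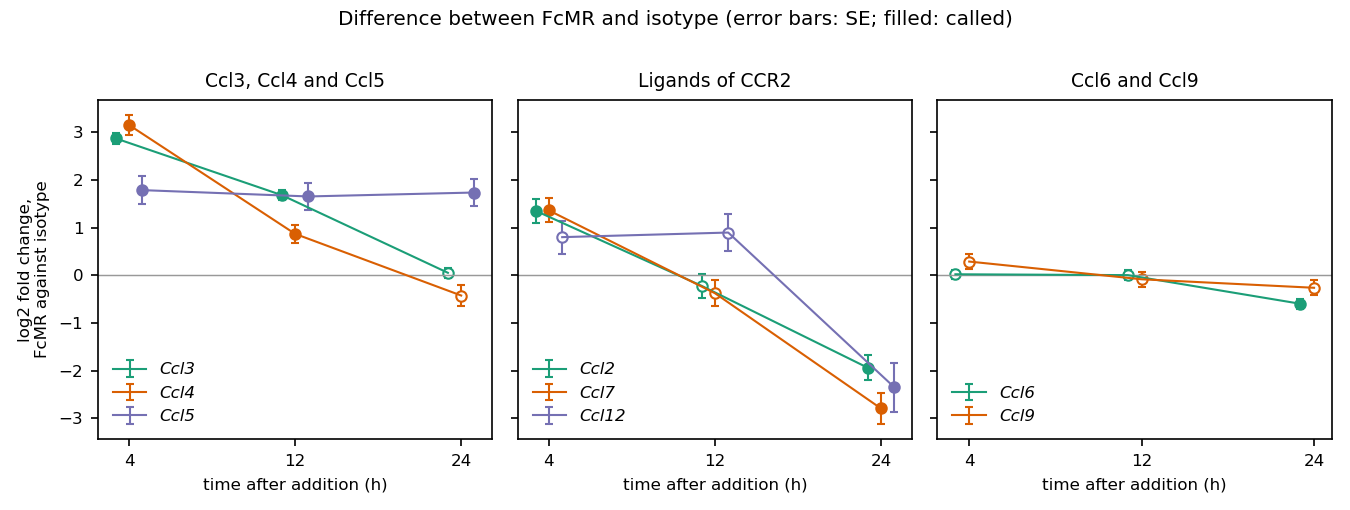
Log2 fold change of FcMR against isotype (y axis) at 4, 12 and 24 h (x axis, evenly spaced) with its SE, filled where called. Ccl5 stays near 1.7 at all 3 times, Ccl3 and Ccl4 decline from about 3 towards 0, and Ccl2, Ccl7 and Ccl12 end below −1.9.

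How the FcMR effect itself moved over time was tested as a change of the FcMR-minus-isotype difference. All such tests share the same 18 treated libraries, so they are not independent of the values above. From 4 to 24 h the effect went down for 6 of the 8 members, all but Ccl5 and Ccl9, where 13.9% of all genes changed in either direction. The change was −4.16 (SE 0.407, adjusted p = 2.92e-06) for Ccl7, −3.58 (SE 0.29, adjusted p = 3.88e-07) for Ccl4 and −3.30 (SE 0.359, adjusted p = 1.02e-05) for Ccl2. It was −3.15 (SE 0.624, adjusted p = 0.00265) for Ccl12, −2.82 (SE 0.153, adjusted p = 4.19e-09) for Ccl3 and −0.62 (SE 0.141, adjusted p = 0.00708) for Ccl6. For Ccl2 and Ccl7 this was a reversal, called higher at 4 h and lower at 24 h, and for Ccl3 and Ccl4 a loss of the early rise. Ccl6 and Ccl12 had no called difference before 24 h. A joint test over the 3 times called the same 6 members, against 11% of all genes.

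The timing of the drop differed between members. Between 4 and 12 h it was called for 4 members (5.39% of all genes), with −2.29 (SE 0.274, adjusted p = 1.31e-04) for Ccl4, −1.74 (SE 0.372, adjusted p = 0.0118) for Ccl7, −1.58 (SE 0.347, adjusted p = 0.0141) for Ccl2 and −1.19 (SE 0.149, adjusted p = 2.06e-04) for Ccl3. For Ccl12 the change in this interval was 0.10 and for Ccl6 −0.02, neither called. Between 12 and 24 h it was called for 6 members, where 1.73% of all genes were called. Ccl12 had −3.25 (SE 0.646, adjusted p = 0.0109), Ccl7 −2.42 (SE 0.421, adjusted p = 0.00421) and Ccl2 −1.72 (SE 0.354, adjusted p = 0.0138). Ccl3 had −1.63 (SE 0.152, adjusted p = 1.61e-05), Ccl4 −1.29 (SE 0.287, adjusted p = 0.0231) and Ccl6 −0.60 (SE 0.141, adjusted p = 0.0354). This later count was the least stable one. It fell to 2 without isotype 24 h replicate 1, when Ccl2 (adjusted p = 0.0589) and Ccl12 (0.0593) lost their calls as well as Ccl4 and Ccl6, and to 3 when only the 12 libraries compared were fitted. Ccl6 lost this call when any of 9 libraries was left out, all but FcMR 12 h replicate 3, FcMR 24 h replicate 2 and isotype 24 h replicate 3, with adjusted p up to 0.146. Ccl4 lost it without FcMR 12 h replicate 2, isotype 12 h replicate 3, FcMR 24 h replicate 2 or isotype 24 h replicate 1 or 2, with adjusted p up to 0.0742. Ccl3 and Ccl7 kept theirs under every alternative tried. Without FcMR 24 h replicate 2 the changes of Ccl12 to 24 h were larger, −3.98 from 12 h and −3.87 from 4 h, and stayed called.

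The isotype arm changed as well, which sets the level that FcMR is compared with. No untreated cells were taken at 4, 12 or 24 h, so the isotype protein and time in culture cannot be told apart. At 4 h 7 members were above untreated and 1, Ccl6, below, where 20.4% of all genes were called higher and 15.2% lower. The rises were 2.52 for Ccl5, 2.46 for Ccl3, 1.98 for Ccl4, 1.84 for Ccl12, 1.23 for Ccl2, 1.02 for Ccl9 and 0.90 for Ccl7 on the log2 scale. Adjusted p ran from 1.31e-11 for Ccl3 to 0.0122 for Ccl7, and the call of Ccl7 was lost without isotype 4 h replicate 1 (adjusted p = 0.0663). At 12 h Ccl5 (4.24), Ccl9 (0.75) and Ccl2 (0.73) were higher and Ccl6 lower, where 22% and 19.6% of all genes were called. At 24 h Ccl5 (3.76), Ccl2 (0.72) and Ccl9 (0.49) were higher, and Ccl6 (−1.88), Ccl4 (−1.76) and Ccl3 (−0.67) lower, against 21.3% and 20.9% of all genes. The call of Ccl2 at 12 h (adjusted p = 0.0254) was lost without untreated replicate 1 or 3 or isotype 12 h replicate 1, with adjusted p up to 0.178. At 24 h (0.0274) it was lost without untreated replicate 1 or 3 or isotype 24 h replicate 1 or 2, with adjusted p up to 0.119. That of Ccl9 at 24 h was lost without untreated replicate 1 (adjusted p = 0.0652).

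Within each arm the members fell at different rates. From 4 to 12 h with FcMR all 8 changed, 7 downwards and Ccl5 upwards, where 18.8% of all genes fell and 21.5% rose. Ccl4 fell 26.3-fold, Ccl3 11.7-fold, Ccl7 9.74-fold, Ccl12 4.31-fold, Ccl2 4.24-fold, Ccl6 2.2-fold and Ccl9 1.57-fold, with adjusted p from 1.31e-12 for Ccl3 to 0.00281 for Ccl9. Ccl5 rose 3-fold (adjusted p = 2.78e-04). From 12 to 24 h with FcMR 6 members fell further and none rose, where 12.6% of all genes fell and 11.2% rose. Ccl12 fell 7.1-fold, Ccl4 6.09-fold, Ccl3 5.3-fold, Ccl7 3.42-fold, Ccl2 3.31-fold and Ccl6 2.13-fold. The estimate for Ccl12 rests on 1 to 7 counts at 24 h, and was −3.52 on the log2 scale without FcMR 24 h replicate 2 beside −2.83 with it. Ccl5 (−0.40) and Ccl9 (−0.43) were not called in this step.

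With isotype the step from 4 to 12 h lowered 5 members and raised Ccl5, where 19.3% of all genes fell and 15.9% rose. Ccl4 fell 5.38-fold, Ccl3 5.11-fold, Ccl12 4.61-fold, Ccl7 2.92-fold and Ccl6 2.17-fold, and Ccl5 rose 3.29-fold. Ccl2 (−0.51) and Ccl9 (−0.28) were not called. From 12 to 24 h Ccl4 fell 2.48-fold, Ccl3 1.71-fold and Ccl6 1.41-fold, 3 members lower and 0 higher against 9.49% and 7.19% of all genes. No further fall of the CCR2 ligands was called with isotype in this last step. Their log2 changes were −0.01 for Ccl2, 0.65 for Ccl7 and 0.42 for Ccl12, none called, beside −1.73, −1.77 and −2.83 with FcMR. The lower level of Ccl2, Ccl7 and Ccl12 with FcMR at 24 h thus came with a further fall in the FcMR arm and none that was called in the isotype arm.

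Levels of different genes were compared as CPM per kilobase of the median annotated transcript, with no test. Summed over the 8 members, this level was 10164 ± 259 (SD, n = 3) in untreated libraries. At 4 h it was 10613 ± 245 with isotype and 19610.5 ± 1176 with FcMR, at 12 h 6379.7 ± 147 and 9775 ± 892, and at 24 h 4682 ± 295 and 6038 ± 40.5. The FcMR libraries were the higher ones at each time, and the sum at 24 h was below the untreated sum in both arms. The makeup of this pool shifted in both arms, and further with FcMR. Ccl6 made up 89.7% ± 0.403 of it in untreated libraries and Ccl9 a further 6.86%, so the 6 other members together were a small remainder. With FcMR at 4 h Ccl3 held 25.9% ± 0.91, Ccl4 16.7% ± 1.16 and Ccl5 7.75% ± 1.27, and Ccl6 39.3% ± 1.53. With isotype at 4 h Ccl6 still held 71.4%, and Ccl3 6.55%.

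By 24 h with FcMR Ccl5 was the leading member, at 57.3% ± 5.83 of the pool, with Ccl6 at 27.2% ± 3 and Ccl9 at 13.6% ± 2.85. With isotype at 24 h Ccl6 led at 52.9% ± 3.17, followed by Ccl5 at 22.2% and Ccl9 at 21%, alike within their spread. With the longest transcript in place of the median one they were 31.1% ± 3.68 and 18.5% ± 0.278, so that likeness depends on the length used. Ccl2, Ccl7 and Ccl12 stayed small contributors throughout. Ccl2 had its largest share, 1.37%, with isotype at 24 h, and Ccl12 its largest, 0.0639%, with isotype at 4 h. In level per kilobase the order in untreated libraries was Ccl6 (9119 ± 214), Ccl9 (697 ± 60.9), Ccl3 (126 ± 5.91), Ccl4 (93.4 ± 4.36), Ccl5 (76.6 ± 9.14), Ccl2 (39.4 ± 3.32), Ccl7 (10 ± 0.787) and Ccl12 (1.9 ± 0.185). With FcMR at 4 h Ccl3 (5092 ± 449) and Ccl4 (3282 ± 393) had moved up to the places behind Ccl6 (7694 ± 475), and Ccl9 (1730 ± 30.7) and Ccl5 (1516 ± 231) came next, not apart beyond their spread. With FcMR at 24 h Ccl5 (3458 ± 370.3) was first, ahead of Ccl6 (1639 ± 175) and Ccl9 (819 ± 168). Ccl6 and Ccl9 have transcripts of very unequal length, and with the longest transcript Ccl6 would hold 27.4% with FcMR at 4 h, less than Ccl3 at 33.6%.

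**Figure D3:**
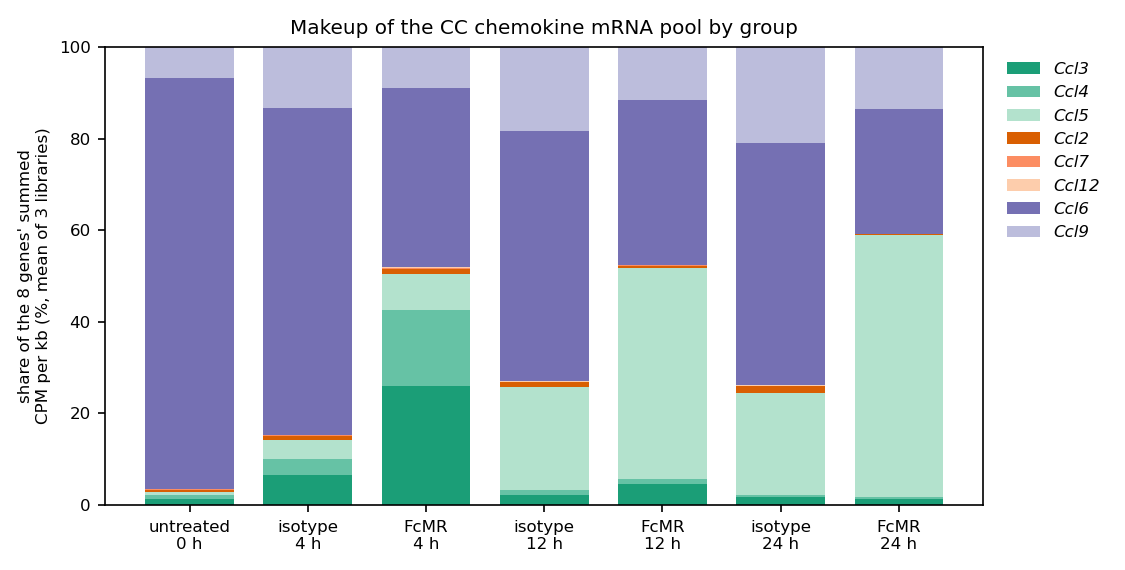
Share of each gene in the summed CPM per kilobase of the 8 chemokines (y axis, mean of 3 libraries per group, bars from 0 to 100%) in the 7 groups (x axis). Ccl6 fills most of the untreated bar, Ccl3 and Ccl4 appear with FcMR at 4 h, and Ccl5 fills more than any other member with FcMR at 24 h.

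Over the 21 libraries the members other than Ccl5 all went with one another, at Pearson r of 0.34 to 0.97. These correlations of log2 CPM describe libraries that share groups and depth, so no p is given. Ccl3 and Ccl4 were closest at r = 0.97, followed by Ccl2 and Ccl7 at r = 0.93. Ccl12 had r = 0.89 with both Ccl2 and Ccl7, 0.88 with Ccl4 and 0.86 with Ccl3, and Ccl2 had r = 0.85 with Ccl4. For Ccl2 and Ccl7 the relation was as close within groups, at r = 0.92 after group means were taken off, while for Ccl3 and Ccl4 it was 0.65. Both of these closest pairs are chromosomal neighbours. Ccl6 and Ccl9, also neighbours, had the lowest, r = 0.34, over all libraries and 0.77 within groups. Ccl5 had no close partner, with r from −0.70 against Ccl6 to 0.22 against Ccl9. In part the closeness within groups goes with the replicate number in the titles. In each of the 7 groups replicate 3 had the lowest Ccl2, the lowest Ccl6 and the lowest Ccl7. Replicate number accounted for 73.2%, 61.4% and 62.2% of the variance that these genes had within groups. For Ccl3, Ccl4, Ccl5, Ccl9 and Ccl12 it held 38.0%, 11.4%, 27.5%, 37.2% and 12.5%, and the labels do not say what a replicate number stands for. Some share would fall to replicate number without any effect of it, and that share was not worked out.

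The genes most like each member were sought among 11103 genes with a mean log2 CPM of at least 1, by Pearson r over the same 21 libraries. Nearest to Ccl3 were Tnf (r = 0.99), a central inflammatory cytokine, and Zdhhc5 (r = 0.98), and nearest to Ccl4 were Tnf (r = 0.98) and Cdkn1a (r = 0.97). Ccl5 lay nearest to Procr (r = 0.99), the endothelial protein C receptor gene, and H2-T22 (r = 0.99), a class I histocompatibility gene. Ccl6 lay nearest to Ngp (r = 0.99) and S100a9 (r = 0.98), both neutrophil granule or cytosol genes that stand in the neutrophil marker list. The nearest to Ccl2 were Tmem171 (r = 0.95) and Dock10 (r = 0.92), and to Ccl7 Gpr183 (r = 0.96) and Tnfsf8 (r = 0.95). Ccl9 was nearest to Cers6 (r = 0.96) and Gpr141 (r = 0.96), and Ccl12 to Lnpk (r = 0.94) and Arhgap17 (r = 0.92). With Spearman's rho 3 of these 16 genes stayed among the nearest 2 (Cdkn1a for Ccl4, H2-T22 for Ccl5 and Arhgap17 for Ccl12), so the names depend on the measure.

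Among the receptors, Ccr2 was lower with FcMR and the atypical receptor Ccrl2 was higher, each at all 3 times. Of 10 receptors and binding proteins described, 9 were in the table and 6 were tested. With FcMR 2 were higher and 2 lower at 4 h, 2 and 2 at 12 h, and 3 and 1 at 24 h. Among all genes the shares called higher and lower were 8.62% and 9.13%, 8.61% and 7.49%, and 11.4% and 9.44%, in the same order. Besides Ccrl2 the higher ones were Sdc4, a cell-surface proteoglycan, at each time and Sdc1, of the same family, at 24 h, both named after their values were seen. Ccr2, the receptor for Ccl2, Ccl7 and Ccl12, was at 73.7, 87.3 and 72.7 CPM in untreated libraries. At 24 h it was at 97.7, 75.8 and 74 CPM with isotype and 11.2, 9.96 and 6.95 CPM with FcMR, with no overlap. Its differences were −1.13 (SE 0.339, adjusted p = 0.0278) at 4 h, −1.98 (SE 0.348, adjusted p = 5.08e-04) at 12 h and −3.13 (SE 0.363, adjusted p = 4.72e-06) at 24 h. The groups overlapped at 4 h, with 53, 73.1 and 28.7 CPM with isotype and 31.7, 19.9 and 18.4 CPM with FcMR. The lowest isotype library there, replicate 3, is 1 of those out of title order. At 24 h receptor and all 3 ligands were thus lower with FcMR. At 4 h the receptor was called lower, with that overlap, while Ccl2 and Ccl7 were higher.

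Ccr1, which binds Ccl3, Ccl5, Ccl6, Ccl7 and Ccl9, stood at 345, 406 and 446 CPM in untreated libraries, 211, 198 and 177 CPM with isotype at 12 h and 138, 96.7 and 85.3 CPM with FcMR at 12 h. It was lower with FcMR, with −0.65 (SE 0.197, adjusted p = 0.0283) at 4 h and −0.88 (SE 0.197, adjusted p = 0.00417) at 12 h, and its difference at 24 h, −0.46 (SE 0.195, adjusted p = 0.117), was not called. At 4 h the groups of Ccr1 overlapped, where FcMR replicate 1 had 160.8 CPM and isotype replicate 3 had 159.5 CPM. The group means of Ccr3 ran from 0.69 ± 0.48 CPM with isotype at 12 h to 2.18 ± 0.38 CPM in untreated libraries, a difference that was called. Between FcMR and isotype Ccr3 was not called at any time. Ackr2, a receptor that takes up inflammatory CC chemokines without signalling, had at most 4 counts in any library and was not tested. Ccrl2 went the other way. It rose from 30, 35.7 and 31.9 CPM in untreated libraries to 190.3, 168 and 211 CPM with isotype and 647, 659 and 613 CPM with FcMR at 4 h, and was at 21.6, 22.2 and 21.2 CPM against 101, 96.7 and 112 CPM at 24 h. All FcMR libraries were above all isotype libraries at these times, and the differences were 1.75 (SE 0.0875, adjusted p = 8.75e-10) at 4 h, 1.72 (SE 0.0879, adjusted p = 6.99e-10) at 12 h and 2.25 (SE 0.0923, adjusted p = 1.13e-11) at 24 h.

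**Figure D4:**
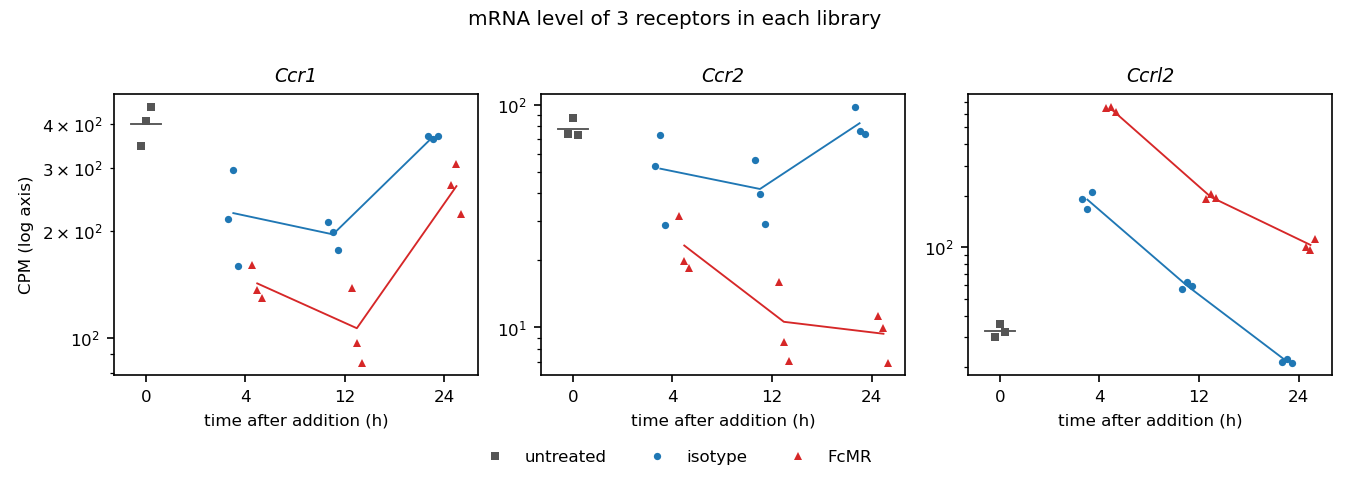
Level of Ccr1, Ccr2 and Ccrl2 in CPM (log axis) in every library by time after addition (evenly spaced), with lines through group means. Ccr2 lies lower with FcMR than with isotype at 12 and 24 h, and Ccrl2 lies higher at each time.

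Of 12 other CC chemokines, 9 were in the table and 6 were tested. With FcMR 3 of these were higher at 4 h, 2 at 12 h and 2 at 24 h, and 0 were lower. Among all genes the shares called higher and lower were 8.62% and 9.13%, 8.61% and 7.49%, and 11.4% and 9.44%, at these times. Their median log2 fold changes were 0.74, 0.22 and −0.14, and those of all genes are given above. Ccl22, a ligand of CCR4, was higher at all 3 times, by 0.91 (SE 0.107, adjusted p = 1.19e-05), 1.21 (SE 0.108, adjusted p = 3.1e-07) and 1.89 (SE 0.11, adjusted p = 1.09e-09). It was at 610.5, 697 and 629 CPM with isotype and 2378, 2462 and 2356 CPM with FcMR at 24 h, so like Ccl5 it kept a difference at the last time. Ccl17, which shares that receptor, was higher by 1.16 (SE 0.191, adjusted p = 2.87e-04) at 12 h and 1.38 (SE 0.2, adjusted p = 5.34e-05) at 24 h, but its level with FcMR fell from 1084 ± 201 CPM at 4 h to 71.3 ± 9.17 CPM at 24 h, and Ccl1, a ligand of CCR8, was higher at 4 h by 1.29 (SE 0.345, adjusted p = 0.014).

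Factors that act on chemokine genes were listed next, 25 genes in all. They were of the NF-kB, AP-1, IRF and STAT families with their inhibitors, and Cebpb, Cebpd and Spi1 besides. At 4 h 11 were higher with FcMR and 1 lower, and at 12 and 24 h 7 were higher and 1 lower. Among all genes the shares called higher and lower were 8.62% and 9.13%, 8.61% and 7.49%, and 11.4% and 9.44%, at these times. The median log2 fold changes of the 25 genes were 0.54, 0.19 and 0.35, beside −0.07, −0.02 and 0.01 over all genes tested. Nfkbiz, a nuclear NF-kB cofactor, was at 563 ± 25.1 CPM with FcMR and 129.5 ± 25 CPM with isotype at 4 h, a difference of 2.12 (SE 0.116, adjusted p = 2.28e-09), and was still higher at 12 h by 1.34 (SE 0.118, adjusted p = 2.95e-07). Irf7, an interferon-response factor, was higher at 4 h by 1.47 (SE 0.27, adjusted p = 9.11e-04). Fos, a subunit of AP-1, was lower at 12 h, with −2.14 (SE 0.176, adjusted p = 1.27e-07), and the NF-kB inhibitors Nfkbia and Nfkbie were higher at 24 h by 1.503 (SE 0.177, adjusted p = 5.64e-06) and 1.36 (SE 0.193, adjusted p = 4.5e-05).

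Of 18 genes that act on mRNA stability or feed back on inflammatory signalling, 6 were higher and 1 lower with FcMR at 4 h, 9 and 2 at 12 h, and 7 and 1 at 24 h. Among all genes the shares called higher and lower were 8.62% and 9.13%, 8.61% and 7.49%, and 11.4% and 9.44%, at these times. The median log2 fold changes of the 18 genes were 0.32, 0.51 and 0.38, beside −0.07, −0.02 and 0.01 over all genes tested. Il10, an anti-inflammatory cytokine, was higher by 2.69 (SE 0.311, adjusted p = 1.04e-05) at 4 h and 4.04 (SE 0.325, adjusted p = 1.02e-07) at 12 h. At 24 h it was called higher as well, at 1.68 ± 0.64 CPM with FcMR, but isotype libraries then had at most 1 count, so no fold is given. Socs3, which inhibits cytokine receptor signalling, was higher by 1.72 (SE 0.304, adjusted p = 6.4e-04), 2.15 (SE 0.309, adjusted p = 7.11e-05) and 1.70 (SE 0.322, adjusted p = 7.83e-04) at the 3 times. The part of these genes in the course of the chemokines was not tested.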

How the data were processed

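The gene table that the authors deposited as raw holds whole-number estimated counts for 23250 genes in 21 libraries. The submitters' processing notes name CASAVA 1.8.2, kallisto 0.44.0 and DESeq2, and the builds mm10 and GRCm38, with no role stated. A second deposited table, of normalized signal, equals the first divided by factors per gene and library whose geometric mean is 1 (within 0.001) for 100% of the 13034 genes without a 0, and it served only as an alternative scaling. Such values leave no molecular identifiers, so amplified copies are counted as reads. Every column matched a sample title (0 left over), and titles gave group and replicate number.

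Gene IDs were matched to symbols, transcript lengths and positions of GENCODE M21 (GRCm38). Counts were scaled by TMM, filtered with filterByExpr (minimum 10 counts) to 13468 genes and tested with edgeR 4.0.16 in R 4.3.3 (quasi-likelihood F test). One model held all 21 libraries, with a mean for each of the 7 groups. P-values were adjusted by Benjamini-Hochberg over all genes tested, with a threshold of 0.05, and every adjusted p in the text comes from this fit unless an alternative is named. The method was tested on simulated data. Libraries held between 5532225 and 66729533 counts, and precision is lowest for Ccl12.

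The members, gene lists, markers and tests were chosen with earlier results of these data known. All 8 members are named. The 2 genes most like each member are named, as are 5 receptors (1 further gene is not reported here), and of each other list at most the 2 called genes with the largest fold change per FcMR comparison. Alternatives were RLE scaling, the deposited factors, no filter, a minimum mean of 10 counts, limma-voom (limma 3.58.1), DESeq2 1.42.0, a GC offset, a replicate block, the groups compared alone, and leaving libraries out. Replicate numbers were not taken as pairs.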

Additional observations from a re-analysis of the deposited data

Results flagged for a closer look

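For 6 members the FcMR effect differed between 4, 12 and 24 h in the joint test of edgeR with Benjamini-Hochberg adjustment. The adjusted p was 2.06e-08 for Ccl3, 1.26e-06 for Ccl4, 1.27e-05 for Ccl7 and 3.99e-05 for Ccl2. It was 0.00427 for Ccl12 and 0.0091 for Ccl6. These are the members whose course the report describes as a loss of the early rise (Ccl3, Ccl4), a reversal (Ccl2, Ccl7) or a difference called at 24 h alone (Ccl6, Ccl12). For Ccl12 all FcMR libraries were also above all isotype libraries at 4 and 12 h, by 0.80 and 0.90 on the log2 scale, without a call. The same test gave 0.985 for Ccl5 and 0.222 for Ccl9, and 11% of all genes were called by it.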

How the results depend on the processing

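No member changed direction between called values under any alternative. The 13 member calls of FcMR against isotype (5 at 4 h, 3 at 12 h, 5 at 24 h) were kept when each of the 21 libraries was left out in turn and under every other setting that tested them. Only Ccl12 at 24 h dropped out, untested, when the 24 h libraries were fitted alone. The count for the change from 12 to 24 h, 6, was 2 to 6 when 1 library was left out and 3 with only the groups compared. That for isotype 24 h against 12 h, 3, was 5 with only the groups compared and 5 with a replicate block and GC offset together. The cause was not tested. All other counts stayed within 1.5 times.

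The GC offset added Ccl9 to the calls at 4 and 24 h and Ccl12 at 4 h (0.95, adjusted p = 0.0356). The replicate block lost no call. It added Ccl7 for isotype against untreated at 12 h (−0.68, adjusted p = 0.00692), Ccl9 for FcMR 24 h against 12 h (−0.44, 0.0254), Ccl2 for isotype 12 h against 4 h (−0.55, 0.00812) and Ccl7 for isotype 24 h against 12 h (0.64, 0.0271). No label says that a number pairs libraries. In the 3 comparisons of FcMR with isotype, the deviations of libraries that share a number had mean correlations of −0.071, 0.106 and 0.014, and in no comparison was every pair above 0.1. Without the filter the median of all genes for FcMR against isotype at 4 h shifted by 0.117. It shifted by −0.125 for isotype against untreated at 4 h and by 0.109 for isotype 12 h against 4 h. For the change of the FcMR effect from 4 to 12 h the shift was −0.128. Under the other scalings no median shifted by over 0.1. Depth limits Ccl12, with 1 to 7 counts in the FcMR libraries at 24 h.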
